A study of Mus musculus with 12 samples.

Results

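The genes that build serine and pass its carbon to folate were followed in mouse hearts after acute myocardial infarction (AMI). The set held 10 genes of the 53801 in the count table. Of these, 9 were taken for their function: *Phgdh*, *Psat1* and *Psph* of serine synthesis, the serine hydroxymethyltransferases *Shmt1* and *Shmt2*, and the folate enzymes *Mthfd1*, *Mthfd1l*, *Mthfd2* and *Aldh1l2*. The other gene, *Gnmt*, was chosen by its measured values, because it was lower on day 1 than in sham hearts and lower again on day 7. *Gnmt* is therefore described with no test and was left out of every count. The 9 genes and the lists of neighbouring genes were also chosen with earlier results of these data known. Their counts beside the shares of all genes therefore describe these genes and are no independent test. All 10 genes passed the filter on low counts, as did 15306 genes in all.

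RNA was sequenced from hearts of adult male C57BL/6N mice in 3 groups of 4 hearts each (sham, day 1 AMI or day 7 AMI), with 1 library per heart. AMI was a permanent ligation of the left anterior descending coronary artery, so the tissue beyond the suture was not reperfused. The labels give no transgene or drug for any group, name the tissue only as heart, and do not tie a day of harvest to the sham hearts. The study's methods name the whole heart as the source of the RNA. In such bulk samples, fewer cells of a type and less RNA per cell cannot be told apart.

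Serine is made from a glycolytic intermediate in 3 steps, by PHGDH, PSAT1 and PSPH. SHMT enzymes then split serine into glycine and a one-carbon unit carried on folate, SHMT2 in mitochondria and SHMT1 in the cytosol. In mitochondria MTHFD2 oxidizes that unit and MTHFD1L releases it as formate. MTHFD1 takes up the formate in the cytosol for purine and thymidylate synthesis, while ALDH1L2 burns the mitochondrial unit to carbon dioxide with production of NADPH. GNMT uses methyl groups from S-adenosylmethionine to methylate glycine and is best known from liver. Adult cardiac muscle is mostly made of cells that do not divide, and the pathway is best known from growing and dividing cells.

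Each library held between 23204551 and 32166517 counts, and mitochondrial transcripts took 12.1% to 27.4% of them. All 10 cardiomyocyte markers were found, and their summed level ran from 72823 to 86382 CPM (counts scaled to library size) in sham hearts, from 42635 to 55350 on day 1 and from 37314 to 45522 on day 7. The summed level of 8 fibroblast markers ran from 1093 to 1335 CPM in sham hearts, from 1746 to 2370 on day 1 and from 8207 to 16464 on day 7. For 8 monocyte and macrophage markers the ranges were 149 to 237, 257 to 365 and 355 to 581 CPM, for 6 neutrophil markers 2.77 to 57.8, 47.0 to 166 and 8.15 to 38.94 CPM, and for 8 markers of proliferating cells 47.2 to 60.7, 86.4 to 100.04 and 208 to 286 CPM, in the same order of groups. For 6 endothelial markers they were 950 to 1067, 790 to 841 and 1146 to 1287 CPM, for 5 erythroid markers 491 to 4450, 420 to 649 and 241 to 969 CPM, and for 5 epicardial and mesothelial markers 10.4 to 24.9, 8.32 to 23.7 and 23.9 to 33.8 CPM. Of 8 hepatocyte markers, 5 (*Alb*, *Apoa1*, *Serpina1a*, *Cyp3a11* and *Apob*) were at or under the floor of 3 counts in every library, and the list summed to at most 0.861 CPM. The cardiomyocyte, fibroblast, macrophage, proliferating cell and endothelial sums of both AMI groups lay apart from those of sham hearts. The neutrophil, erythroid and epicardial sums overlapped sham on both days. The part of these cell markers in the results that follow was not tested.

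The genes of 4 steps of the pathway rose together on day 1 AMI. *Phgdh*, *Psat1*, *Mthfd2* and *Mthfd1l* rose 3.81- to 5.99-fold against sham, and no day 1 heart overlapped a sham heart for any of them. The share of all genes with such separation was not computed, so separation here and below has no share to be read against. Of the 9 genes tested, these 4 were higher and 0 were lower at a false discovery rate (FDR) below 0.05 in edgeR's quasi-likelihood test, and the other 5 did not pass. Over all 15306 genes tested, 22.0% were higher and 19.9% lower by that rule. All 4 also had a fold change of 2 or greater, as had 7.79% of all genes upward and 2.98% downward. The median log2 fold change was 0.20 over the 9 genes and −0.01 over all genes.

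From day 1 to day 7 AMI, 0 of the 9 genes were higher and 4 were lower, namely *Psat1*, *Mthfd1l*, *Shmt2* and *Mthfd1*. Over all genes, 24.2% were higher and 22.8% lower. None of these 4 changed by 2-fold or more, against 8.55% of all genes upward and 2.69% downward, and *Mthfd1l* lay just inside that limit with a fold of 1.98. The number past 2-fold was 1 without day 1 replicate 3, day 7 replicate 3 or day 7 replicate 4, and 2 without day 1 replicate 4. Against sham, day 7 AMI hearts were higher in the same 4 genes as on day 1, by 2.97- to 3.91-fold, and lower in 3, *Shmt1*, *Shmt2* and *Mthfd1*. Over all genes 30.9% were higher and 28.4% lower on day 7 against sham, and 15.3% and 5.88% were so with a fold change of 2 or greater. The median log2 fold change of the 9 genes was −0.26 from day 1 to day 7 and −0.04 against sham, where those of all genes were 0.02 and 0.03. Both comparisons with sham share the sham hearts.

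**Figure D1:**
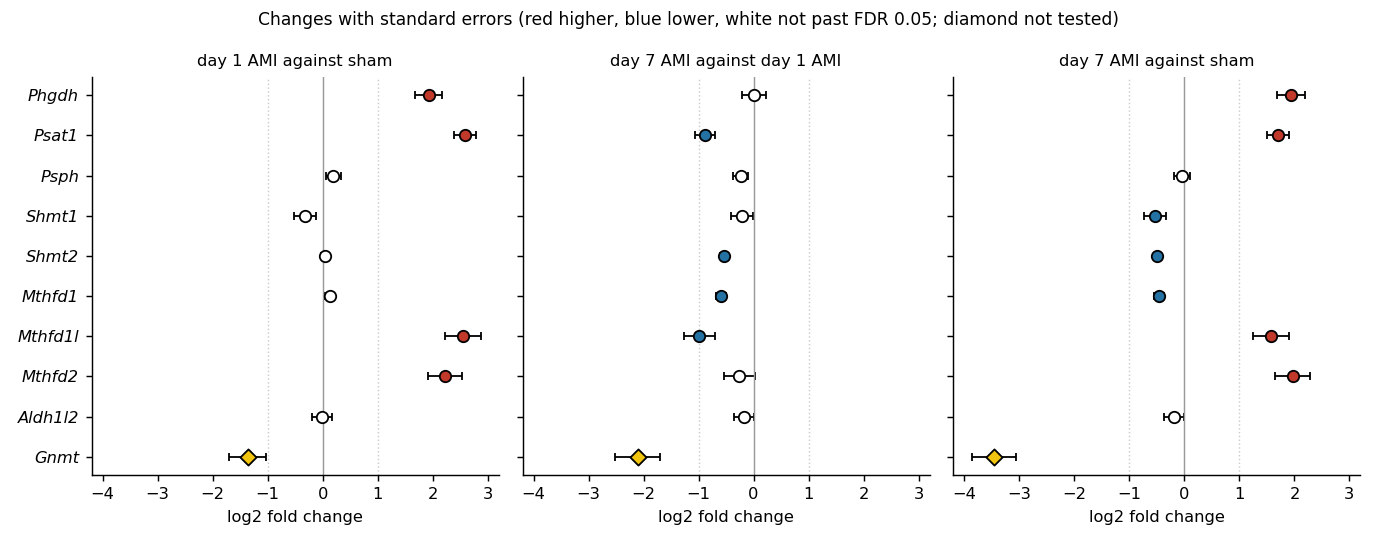
Log2 fold changes (horizontal axis) with standard errors for the 10 genes in the 3 comparisons, red where higher, blue where lower and white where the FDR was 0.05 or greater; the *Gnmt* diamond was not tested. *Phgdh*, *Psat1*, *Mthfd1l* and *Mthfd2* lie between 1.57 and 2.58 in both comparisons with sham, and the other tested genes lie within 1 of zero.

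*Phgdh* (GRCm38 chr3:98313170-98339990, minus strand) encodes phosphoglycerate dehydrogenase, the first and committing enzyme of serine synthesis. Its level in the sham hearts was 0.939, 1.81, 1.99 and 1.34 CPM (replicates 1 to 4). It was 6.46, 6.27, 5.10 and 5.49 CPM on day 1 and 8.47, 5.76, 4.35 and 4.83 CPM on day 7. Every infarcted heart lay above every sham heart, while the day 1 and day 7 hearts overlapped. *Phgdh* rose by a log2 fold change of 1.93 ± 0.25 (SE, n = 4 hearts per group, edgeR FDR 7.5e-05) on day 1 and stood 1.94 ± 0.25 above sham on day 7 (FDR 1.4e-05). The change from day 1 to day 7 was 0.01 with a 95% interval from −0.42 to 0.44 (edgeR FDR 0.976).

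*Psat1* (chr19:15904678-15947337, minus strand) encodes phosphoserine aminotransferase, the second enzyme. Its level was 2.45, 2.71, 3.10 and 4.30 CPM in the sham hearts, 19.96, 23.4, 19.3 and 12.7 CPM on day 1, and 11.2, 9.85, 8.82 and 11.1 CPM on day 7. The 3 groups did not overlap, with day 1 highest and sham lowest. *Psat1* rose by 2.58 ± 0.20 on the log2 scale on day 1 (edgeR FDR 3.55e-06), a 5.99-fold change. It fell by 0.88 ± 0.18 from day 1 to day 7 (FDR 0.00136) and remained 3.26-fold above sham on day 7 (log2 1.71 ± 0.20, FDR 7e-06).

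*Psph* (chr5:129765558-129787449, minus strand) encodes phosphoserine phosphatase, which completes serine. Its level ran from 5.01 to 5.74 CPM in sham hearts, from 5.43 to 7.69 CPM on day 1 and from 4.52 to 6.41 CPM on day 7, so all groups overlapped. The log2 changes were 0.20 ± 0.14 on day 1 (edgeR FDR 0.291), −0.23 ± 0.14 from day 1 to day 7 (FDR 0.193) and −0.04 ± 0.14 against sham on day 7 (FDR 0.842). The 95% interval on day 1, from −0.09 to 0.48, lies below the interval of *Psat1*, from 2.19 to 2.98. Exons of *Cct6a* on the other strand cover 10.4% of the exon length of *Psph*, and the strand counted is not given in the sources used here.

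**Figure D2:**
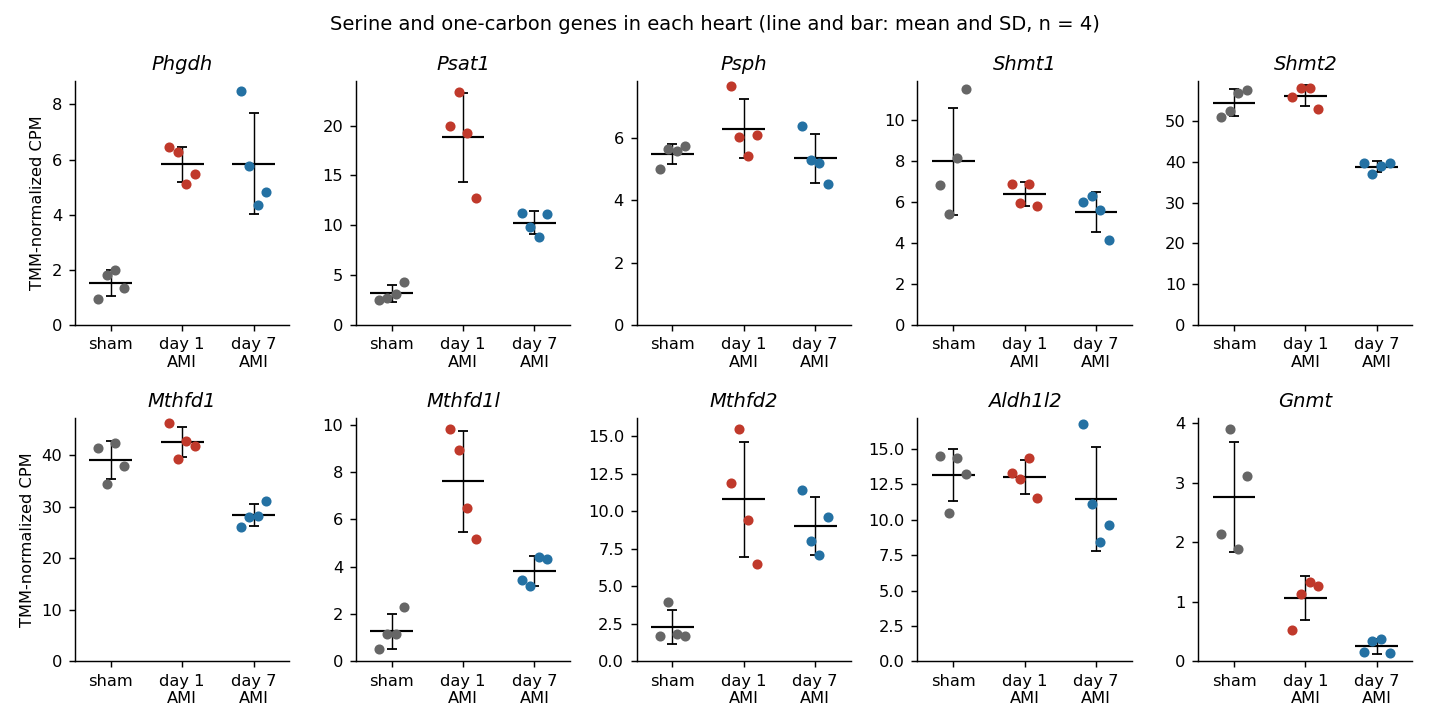
TMM-normalized CPM (vertical axis, linear from 0) of each gene in each heart by group, with the mean as a line and the SD as a bar (n = 4). In the *Psat1* panel the 3 groups are apart, in the *Phgdh* panel both AMI groups lie above sham, and in the *Psph* panel all groups overlap.

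*Mthfd2* (chr6:83305691-83325908, minus strand) encodes the mitochondrial dehydrogenase and cyclohydrolase that oxidizes the one-carbon unit. Its level was 1.67, 3.98, 1.79 and 1.67 CPM in the sham hearts, 11.9, 15.5, 9.39 and 6.50 CPM on day 1, and 11.4, 8.0, 7.08 and 9.63 CPM on day 7. Each infarcted heart lay above each sham heart, and day 1 overlapped day 7. *Mthfd2* rose by 2.22 ± 0.31 on the log2 scale on day 1 (edgeR FDR 0.000127) and was 1.97 ± 0.31 above sham on day 7 (FDR 9.46e-05), with −0.26 ± 0.28 between the days (FDR 0.472). Sham replicate 2 stood apart from the other sham hearts. The same heart had the highest sham level of the erythroid (4450 CPM), neutrophil (57.8 CPM) and macrophage (237 CPM) marker lists, and without it the day 1 change of *Mthfd2* was 2.66 and that of day 7 was 2.4.

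*Mthfd1l* (chr10:3973118-4167081, plus strand) encodes the mitochondrial synthetase that releases formate. Its level was 0.522, 1.15, 1.16 and 2.30 CPM in the sham hearts, from 10 to 48 counts. It was 9.83, 8.92, 6.48 and 5.17 CPM on day 1 and 3.42, 3.17, 4.43 and 4.32 CPM on day 7. The groups did not overlap, and day 7 lay between sham and day 1. *Mthfd1l* rose by 2.55 ± 0.32 on the log2 scale on day 1 (edgeR FDR 6.66e-05), fell by 0.98 ± 0.29 from day 1 to day 7 (FDR 0.0115), and was 1.57 ± 0.33 above sham on day 7 (FDR 0.000834). Its fall between the days missed the threshold by limma on log2(TPM + 0.1) (adjusted p = 0.0822).

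*Aldh1l2* (chr10:83487450-83534140, minus strand) encodes the mitochondrial 10-formyltetrahydrofolate dehydrogenase. It ran from 10.47 to 14.5 CPM in sham hearts, from 11.5 to 14.4 CPM on day 1 and from 8.41 to 16.7 CPM on day 7, and all groups overlapped. Its log2 changes were −0.01 ± 0.18 on day 1 (95% interval −0.37 to 0.34, edgeR FDR 0.963), −0.18 ± 0.18 between the days (FDR 0.433) and −0.19 ± 0.18 against sham on day 7 (FDR 0.38). Day 7 replicate 1 held the highest value, and without it the changes were −0.43 (adjusted p = 0.0231) between the days and −0.44 (adjusted p = 0.0164) against sham. Exons of *D10Wsu102e* on the other strand cover 14.1% of the exon length of *Aldh1l2*.

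*Shmt2* (chr10:127517123-127522444, minus strand), the mitochondrial serine hydroxymethyltransferase, had the highest TPM of the set in each group. Its level was 51.0, 52.5, 57.0 and 57.8 CPM in the sham hearts, 55.8, 58.1, 58.3 and 52.9 CPM on day 1, and 39.7, 36.9, 39.0 and 39.7 CPM on day 7. Day 1 overlapped sham, and every day 7 heart lay below both. The day 1 change was 0.04 ± 0.07 on the log2 scale (95% interval −0.09 to 0.18, edgeR FDR 0.63), so a change as large as that of *Psat1* lies outside its interval. *Shmt2* fell by 0.53 ± 0.07 from day 1 to day 7 (FDR 3.44e-05) and was −0.49 ± 0.07 against sham on day 7 (FDR 3.29e-05).

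*Mthfd1* (chr12:76255298-76319803, plus strand) encodes the cytosolic enzyme of 3 activities that loads formate onto folate and carries it to the forms used for synthesis. Its level was 41.4, 34.3, 42.4 and 37.9 CPM in the sham hearts, 46.3, 39.3, 42.8 and 41.9 CPM on day 1, and 26.0, 28.0, 28.2 and 31.2 CPM on day 7. As with *Shmt2*, day 1 overlapped sham and day 7 lay below both. The log2 changes were 0.13 ± 0.09 on day 1 (edgeR FDR 0.269), −0.59 ± 0.09 from day 1 to day 7 (FDR 0.000117) and −0.46 ± 0.09 against sham on day 7 (FDR 0.000447).

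*Shmt1* (chr11:60788104-60811718, minus strand), the cytosolic paralog of *Shmt2*, read 6.83, 5.42, 8.15 and 11.5 CPM in the sham hearts, 6.88, 5.94, 6.87 and 5.80 CPM on day 1, and 6.01, 6.30, 5.61 and 4.12 CPM on day 7. All groups overlapped, and sham replicate 4 was the highest heart. The day 7 change against sham was −0.53 ± 0.20 on the log2 scale (edgeR FDR 0.0361), and those on day 1 (−0.32 ± 0.20, FDR 0.217) and between the days (−0.21 ± 0.20, FDR 0.417) did not pass. The day 7 call was lost without sham replicate 3 (−0.53, adjusted p = 0.0648), sham replicate 4 (−0.31, adjusted p = 0.16), day 7 replicate 3 (−0.54, adjusted p = 0.0586) or day 7 replicate 4 (−0.42, adjusted p = 0.108). It was kept in 3 of 7 alternative fits, and lost when only the groups compared were fitted (−0.55, adjusted p = 0.0589), with the replicate block (−0.52, adjusted p = 0.0703) and as log2(TPM + 1) (−0.09, adjusted p = 0.683) or log2(TPM + 0.1) (−0.10, adjusted p = 0.699).

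The falls on day 7 against sham depended on the scale, while those of *Psat1*, *Shmt2* and *Mthfd1* from day 1 to day 7 passed in each of 7 alternative fits, TPM included (smallest changes −0.53, −0.29 and −0.30, and highest adjusted p = 0.025, 0.0276 and 0.0233). TPM, a measure that sets each gene against all other transcripts of its library, shifted the median of all tested genes by 0.23 (day 1 against sham), 0.18 (day 7 against day 1) and 0.44 (day 7 against sham) as log2(TPM + 1). On that scale the day 7 change against sham was 0.13 for *Shmt2* and 0.13 for *Mthfd1*, opposite in sign to the count-based values and not past the threshold, and it was −0.31 for each relative to the median of all genes. By limma on log2(TPM + 1) 4 of the 9 genes were higher and 0 lower on day 7 against sham, where the count test gave 4 and 3. On day 1 that scale called 7 higher and 0 lower, adding *Psph* (0.35), *Shmt2* (0.41) and *Mthfd1* (0.43). All shares of all genes given in this report are from the count test. None is given for the TPM scales, so the TPM counts here and below have no share to be read against. The rises of *Phgdh*, *Psat1*, *Mthfd2* and *Mthfd1l* against sham passed the threshold on both days in each of 7 alternative fits and in each of 12 fits that left out 1 heart.

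*Gnmt* (chr17:46725664-46729168, minus strand), glycine N-methyltransferase, ran the other way. Its level was 2.14, 3.90, 1.89 and 3.11 CPM in the sham hearts, 0.535, 1.13, 1.34 and 1.26 CPM on day 1, and 0.154, 0.348, 0.369 and 0.136 CPM on day 7. The groups did not overlap, which the choice of the gene fixes in part. The counts behind these levels were 39 to 95, 14 to 41 and 4 to 10, so on day 7 it was a few counts above the floor of 3. Its log2 change was −1.36 ± 0.33 on day 1, −2.10 ± 0.41 from day 1 to day 7 and −3.47 ± 0.40 against sham on day 7, an 11.04-fold lower level by counts. The drop was smaller from TPM. The same 3 changes were −1.04, −1.64 and −2.69 as log2(TPM + 0.1) and −0.77, −0.89 and −1.66 as log2(TPM + 1). Relative to the median of all genes, they were −1.35, −1.89 and −3.26 as log2(TPM + 0.1) and −1.35, −2.12 and −3.49 by counts. As log2(TPM + 1), the changes between the days and on day 7 against sham were −1.08 and −2.10 relative to that median. The highest sham value was again in replicate 2. The sum of the 8 hepatocyte markers moved in the same order, from 0.365 to 0.861 CPM in sham hearts, 0.344 to 0.627 on day 1 and 0.184 to 0.340 on day 7, with 5 of them at or under the floor in every heart and *Apoa2*, *Ttr* and *Tat* above it in at least 1, and the part of this in the *Gnmt* values was not tested.

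Promoter sequences are shown for the 4 genes that rose together, to let their starts be compared. They are the 250 bases before the transcript start from RefSeq (GRCm38.p6), 5′ to 3′ on the gene's strand, with CCAAT and GGGCGG on either strand in capitals; for *Psat1* the one of its 2 RefSeq starts at the higher coordinate is shown. The windows are chr3:98339970-98340219 (minus) for *Phgdh*, chr19:15925060-15925309 (minus) for *Psat1*, chr6:83317605-83317854 (minus) for *Mthfd2* and chr10:3972825-3973074 (plus) for *Mthfd1l*.
Phgdh: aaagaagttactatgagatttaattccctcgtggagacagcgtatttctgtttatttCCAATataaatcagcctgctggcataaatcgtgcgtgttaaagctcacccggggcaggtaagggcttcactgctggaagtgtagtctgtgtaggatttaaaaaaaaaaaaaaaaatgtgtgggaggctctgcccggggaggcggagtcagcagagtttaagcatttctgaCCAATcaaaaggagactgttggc
Psat1: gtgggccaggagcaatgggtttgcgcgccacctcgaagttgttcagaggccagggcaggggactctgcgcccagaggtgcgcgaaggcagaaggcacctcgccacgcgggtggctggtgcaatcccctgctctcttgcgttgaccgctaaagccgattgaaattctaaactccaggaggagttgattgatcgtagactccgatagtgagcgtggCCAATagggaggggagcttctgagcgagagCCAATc
Mthfd2: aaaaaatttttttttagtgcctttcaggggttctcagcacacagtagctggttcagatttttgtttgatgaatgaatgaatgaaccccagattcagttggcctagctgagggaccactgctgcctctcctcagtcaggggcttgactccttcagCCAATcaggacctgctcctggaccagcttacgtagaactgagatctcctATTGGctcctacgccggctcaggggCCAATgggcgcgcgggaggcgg
Mthfd1l: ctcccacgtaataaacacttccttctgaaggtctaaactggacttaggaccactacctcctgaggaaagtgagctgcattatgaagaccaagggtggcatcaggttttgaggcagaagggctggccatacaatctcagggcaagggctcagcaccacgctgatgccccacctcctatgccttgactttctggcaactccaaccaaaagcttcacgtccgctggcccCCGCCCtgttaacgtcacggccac

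Motifs were searched on both strands in the RefSeq windows of 300 bases, which run from 250 bases before to 50 bases after the start. Windows were found for 9 of the 10 genes, 10 windows in all, and *Aldh1l2* had none in the table. The C/EBP-ATF element TGATGNAA was in 3.97% of all 32851 windows and in 0 of these 10, and the E-box CACGTG was in 7.15% of all windows and likewise in 0 of the 10. CCAAT was in 37.4% of all windows. Among the genes that rose it had 2 matches in *Phgdh*, 3 in *Mthfd2*, 0 in *Mthfd1l*, and 3 in the *Psat1* window of the start shown, 1 of them past the start and so outside the bases printed, with 0 in the other *Psat1* window. Among the other genes it had 2 matches in *Psph*, 1 each in *Shmt1*, *Mthfd1* and *Gnmt*, and 0 in *Shmt2*. GGGCGG was in 35.7% of all windows, with 1 match in *Mthfd1l* and 2 in the other *Psat1* window, and with 3 in *Psph*, 4 in *Shmt1* (overlapping matches counted) and 1 in *Mthfd1*. These last motifs were chosen after the sequences were seen. A match is a run of letters and not a measured site, and no binding was measured in these hearts.

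For *Shmt2*, *Mthfd1l* and *Aldh1l2* a cytosolic paralog is known, and *Mthfd2* has the mitochondrial paralog *Mthfd2l*. The difference in log2 CPM within a heart was compared by an exact two-sided permutation test of 4 hearts against 4, whose smallest p is 0.0286. Over the 12 tests the smallest adjusted p was 0.0857, so none passed 0.05 after adjustment. Any full separation of the hearts gives that smallest p, however wide the gap. Separation in only a few of the 12 tests therefore cannot pass, and the adjusted values do not decide whether a ratio changed.

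*Mthfd1l* to *Mthfd1* was −6.12, −4.81, −5.10 and −4.00 in the sham hearts, −2.23, −2.13, −2.71 and −3.00 on day 1, and −2.90, −3.12, −2.65 and −2.83 on day 7. Both AMI groups lay above sham without overlap, by 2.49 on day 1 and 2.14 on day 7 (exact p = 0.0286 for each, adjusted 0.0857). *Mthfd2* to *Mthfd2l* was −1.92, −0.19, −1.51 and −1.71 in the sham hearts, 1.36, 1.57, 0.86 and 0.49 on day 1, and 1.23, 0.25, 0.24 and 0.54 on day 7, again without overlap with sham (differences 2.4 and 1.90, exact p = 0.0286 for each, adjusted 0.0857). *Mthfd2l* itself changed by −0.17 ± 0.15 on day 1 and 0.14 ± 0.15 on day 7 against sham (edgeR FDR 0.385 and 0.436). By limma on log2(TPM + 1) its day 7 change against sham was 0.53 and passed (adjusted p = 0.00114), where the median of all genes was 0.44. Between the days *Mthfd2l* changed by 0.30 ± 0.14 (edgeR FDR 0.0995). That change passed without day 7 replicate 1 (0.40, edgeR adjusted p = 0.0365) and by limma on log2(TPM + 1) (0.57, adjusted p = 0.00172). *Shmt2* to *Shmt1* moved by 0.32 on day 1 (exact p = 0.143) and by 0.00 on day 7 (exact p = 1), and its groups overlapped. *Aldh1l2* to *Aldh1l1* moved by 0.56 on day 1 (exact p = 0.0571) and by 0.54 on day 7 (exact p = 0.0857), also with overlap, while *Aldh1l1*, the cytosolic dehydrogenase, was −0.78 ± 0.21 against sham on day 7 (edgeR FDR 0.00476). That *Aldh1l1* call was lost on both TPM scales (−0.24, adjusted p = 0.178, as log2(TPM + 1)).

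**Figure D3:**
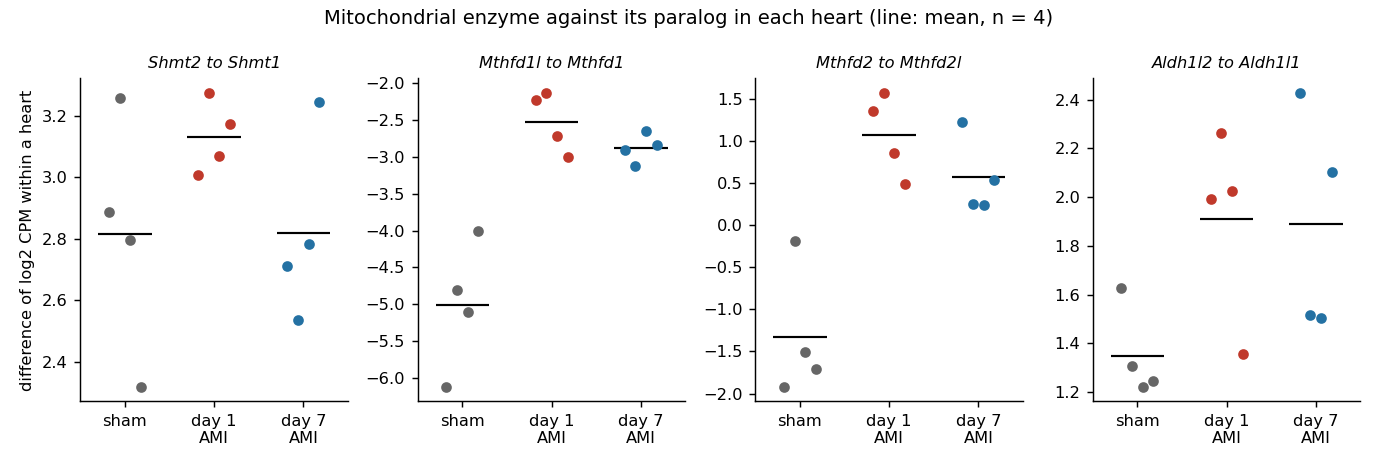
Difference in log2 CPM between paralogs (vertical axis, a separate range in each panel) in each heart by group, with the group mean as a line (n = 4). *Mthfd1l* to *Mthfd1* and *Mthfd2* to *Mthfd2l* lie higher in both AMI groups than in sham without overlap, and the other pairs overlap between groups.

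Levels of different genes were compared as TPM, which is scaled to transcript length. In sham hearts the order of mean levels was *Shmt2* (32.2 ± 3.42 TPM, SD, n = 4), *Mthfd1* (15.7 ± 1.84), *Shmt1* (5.57), *Psph* (5.15), *Gnmt* (3.99), *Aldh1l2* (2.55), *Mthfd2* (1.69), *Psat1* (1.64), *Phgdh* (1.03) and *Mthfd1l* (0.440). The 4 genes that rose were the 4 lowest in sham hearts. Below *Mthfd1*, each gene overlapped the next in this order. On day 1 AMI *Psat1* (11.8 ± 2.61 TPM) and *Mthfd2* (8.82 ± 3.41) came next after *Shmt2* (43.1) and *Mthfd1* (21.4), and they overlapped each other, as *Mthfd2* did *Psph* (6.88 ± 0.99). On day 7 *Mthfd2* (9.09 ± 1.93 TPM) and *Psat1* (7.75 ± 1.15) held these places, overlapping each other, and *Psat1* also overlapped *Psph* (6.60 ± 1.09). *Gnmt* was last (0.535 ± 0.223), below *Mthfd1l* (1.90 ± 0.40) without overlap.

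Serine can also be imported. Of 15 genes of serine and glycine supply and use, 13 were tested, and 6 were higher and 3 lower on day 1 than in sham, with a median log2 change of 0.24, beside 22.0% and 19.9% of all genes. *Slc1a4*, a neutral amino acid transporter that carries serine, went from 1.56 to 2.96 CPM in sham hearts to 4.13 to 7.88 on day 1 and 9.59 to 15.7 on day 7, with no overlap among the groups. It rose by 1.60 ± 0.25 on the log2 scale on day 1 and by another 0.87 ± 0.22 to day 7 (edgeR FDR 0.000224 and 0.00508). *Slc38a2*, a sodium-coupled transporter of small neutral amino acids, rose by 0.82 ± 0.16 on day 1 (FDR 0.00103), fell by 0.45 ± 0.16 to day 7 (FDR 0.0299) and was 0.38 ± 0.16 against sham on day 7 (FDR 0.0518). That fall was lost on the log2(TPM + 1) scale (adjusted p = 0.357) and without day 1 replicate 1 or 2 or day 7 replicate 2, 3 or 4 (adjusted p from 0.0659 to 0.0955). *Sfxn3*, of the mitochondrial sideroflexin family, rose by 0.53 ± 0.16 on day 1 and was 0.92 ± 0.16 above sham on day 7 (FDR 0.0146 and 0.000161). Without day 1 replicate 2 the day 1 rise of *Sfxn3* missed the threshold (0.42, edgeR adjusted p = 0.0544). The day 1 count of 6 fell to 3 without sham replicate 3, to 3 without day 1 replicate 1 and to 2 without day 1 replicate 2, and the 3 lower calls fell to 1 without sham replicate 1 or day 1 replicate 1. On day 7 against sham 6 were higher and 2 lower by the count test, beside 30.9% and 28.4% of all genes. The TPM scale, for which no share of all genes is given, called 10 higher and 0 lower.

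Some of the members are known targets of the transcription factor ATF4, which responds to a lack of amino acids and to stress. The members were not sorted here by whether ATF4 acts on them. On day 1 *Phgdh*, *Psat1*, *Mthfd2* and *Mthfd1l* rose. *Psph* (0.20), *Shmt2* (0.04), *Aldh1l2* (−0.01), *Shmt1* (−0.32) and *Mthfd1* (0.13) did not pass, so the members did not move as one. Of 14 other genes of the ATF4 and amino acid response, 11 were higher and 1 lower on day 1 than in sham, with a median log2 change of 0.60, beside 22.0% and 19.9% of all genes. *Asns*, asparagine synthetase, ran from 1.02 to 2.71 CPM in sham hearts, from 5.90 to 9.28 on day 1 and from 4.43 to 6.90 on day 7, and rose by 2.07 ± 0.27 on day 1 (edgeR FDR 7.75e-05). *Slc7a5*, a carrier of large neutral amino acids, rose by 1.95 ± 0.27 (FDR 0.00011), and *Slc7a11*, the cystine carrier, also passed the test upward (FDR 0.000372), from 0.0522 to 0.146 CPM in sham hearts, at or near the floor, to 0.523 to 1.61 CPM on day 1. *Atf4* itself rose by 0.79 ± 0.16 (FDR 0.00153). The gene that fell was *Vldlr*, a lipoprotein receptor, by 1.47 ± 0.13 (FDR 8.0e-06); *Atf4* and *Vldlr* were named after their values were seen. Without day 1 replicate 2 the 11 calls fell to 6. From day 1 to day 7, 2 of the 14 were higher and 6 lower, beside 24.2% and 22.8% of all genes. *Atf4* was among the 6, and by limma on log2(TPM + 1) 1 gene of the list was lower. On day 7 against sham 5 of the 14 were higher and 2 lower, beside 30.9% and 28.4% of all genes, and 10 and 1 on the log2(TPM + 1) scale. *Atf4* was not called against sham on day 7 by the count test.

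Of 11 tested folate enzymes outside the set, 2 were higher and 1 lower on day 1 against sham, beside 22.0% and 19.9% of all genes, and 4 were higher and 3 lower on day 7, beside 30.9% and 28.4%, with 7 and 0 on the TPM scale on day 7. *Tyms*, thymidylate synthase, which uses the one-carbon unit for DNA synthesis, ran from 1.00 to 1.81 CPM in sham hearts, from 3.56 to 6.15 on day 1 and from 8.74 to 11.8 on day 7, rising at each step by 1.79 ± 0.22 and 1.05 ± 0.19 (edgeR FDR 5.63e-05 and 0.000521). *Ggh*, which trims the glutamate tail of folates, rose by 0.74 ± 0.12 from day 1 to day 7 (FDR 0.000285). *Fpgs*, which adds that tail, rose by 0.73 ± 0.18 on day 1 (FDR 0.00449) and fell by 0.53 ± 0.17 to day 7 (FDR 0.0208). That fall was lost on both TPM scales, where 0 genes of this list were lower from day 1 to day 7, against 3 by the count test. The lower call on day 1 was *Aldh1l1*, which was lost when sham replicate 3 or 4 or day 1 replicate 1, 2 or 3 was left out (adjusted p from 0.0714 to 0.116), without the filter (0.0558), with the replicate block (0.0662) and on both TPM scales (0.155 and 0.165), and there were 2 lower calls without day 1 replicate 4. Of 4 folate carriers and receptors tested, *Slc19a1*, the reduced folate carrier, rose by 0.63 ± 0.15 on day 1 and fell by 0.79 ± 0.15 to day 7 (FDR 0.00455 and 0.000684), with the fall not past the threshold on the TPM scale (adjusted p = 0.0962).

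Of 8 genes of purine synthesis, which takes one-carbon units from folate at 2 of its steps, 1 was higher and 2 lower on day 1 than in sham, beside 22.0% and 19.9% of all genes. From day 1 to day 7, 0 were higher and 6 lower, beside 24.2% and 22.8%. On day 7 against sham 0 were higher and 6 lower, beside 30.9% and 28.4%, where the TPM scale gave 3 higher and 0 lower. *Atic*, the enzyme of the last folate-dependent step, rose by 0.62 ± 0.11 on day 1 and fell by 0.66 ± 0.11 to day 7 (edgeR FDR 0.00081 and 0.000328). *Gart*, which carries the other such step, ran from 59.6 to 61.2 CPM in sham hearts, from 62.1 to 65.6 on day 1 and from 36.9 to 40.2 on day 7, and fell by 0.75 ± 0.06 from day 1 to day 7 (FDR 7e-07). The 2 lower calls on day 1, *Paics* (−0.27 ± 0.08) and *Adsl* (−0.16 ± 0.06), both turned positive on the TPM scale (0.05 and 0.10), and 0 remained without day 1 replicate 2.

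Of 5 tested genes of glycine cleavage and N-methylglycine breakdown, 0 were higher and 1 lower on day 1, beside 22.0% and 19.9% of all genes, and 1 was higher and 2 lower on day 7, beside 30.9% and 28.4%, against sham. *Sardh*, which demethylates the sarcosine that GNMT makes, was 1.09 ± 0.24 above sham on day 7 (edgeR FDR 0.00124), and *Dld*, a subunit shared by the glycine cleavage system and the keto acid dehydrogenases, was −0.93 ± 0.12 (FDR 1.48e-05). Of 12 tested genes of the methionine cycle and methyl use, 4 were higher and 4 lower on day 1 and 2 were higher and 5 lower on day 7 against sham, to be read beside the same shares of all genes, where the TPM scale gave 8 and 1. *Nnmt*, which methylates nicotinamide, rose by 0.89 ± 0.19 on day 1 and by 1.16 ± 0.17 to day 7 (FDR 0.00213 and 0.000119). Without day 1 replicate 2, 2 genes of this list were lower on day 1.

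Of 8 tested genes of transsulfuration and glutathione synthesis, 0 were higher and 1 lower on day 1, beside 22.0% and 19.9% of all genes, and 1 was higher and 5 lower on day 7, beside 30.9% and 28.4%, against sham. The TPM scale gave 4 and 0 on day 1 and 2 and 1 on day 7. *Cth*, which makes cysteine from the product of serine and homocysteine, ran from 2.09 to 3.12 CPM in sham hearts, from 0.716 to 1.73 on day 1 and from 0.370 to 0.812 on day 7. It fell by 1.11 ± 0.31 on day 1 and again fell by 1.11 ± 0.34 to day 7 (edgeR FDR 0.0112 and 0.0162). These falls missed the threshold on the log2(TPM + 1) scale (adjusted p = 0.0535 and 0.0719), and the latter also without day 1 replicate 3 (adjusted p = 0.0529) or replicate 4 (adjusted p = 0.0606). Without day 1 replicate 4, 1 gene of the list was higher on day 1.

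**Figure D4:**
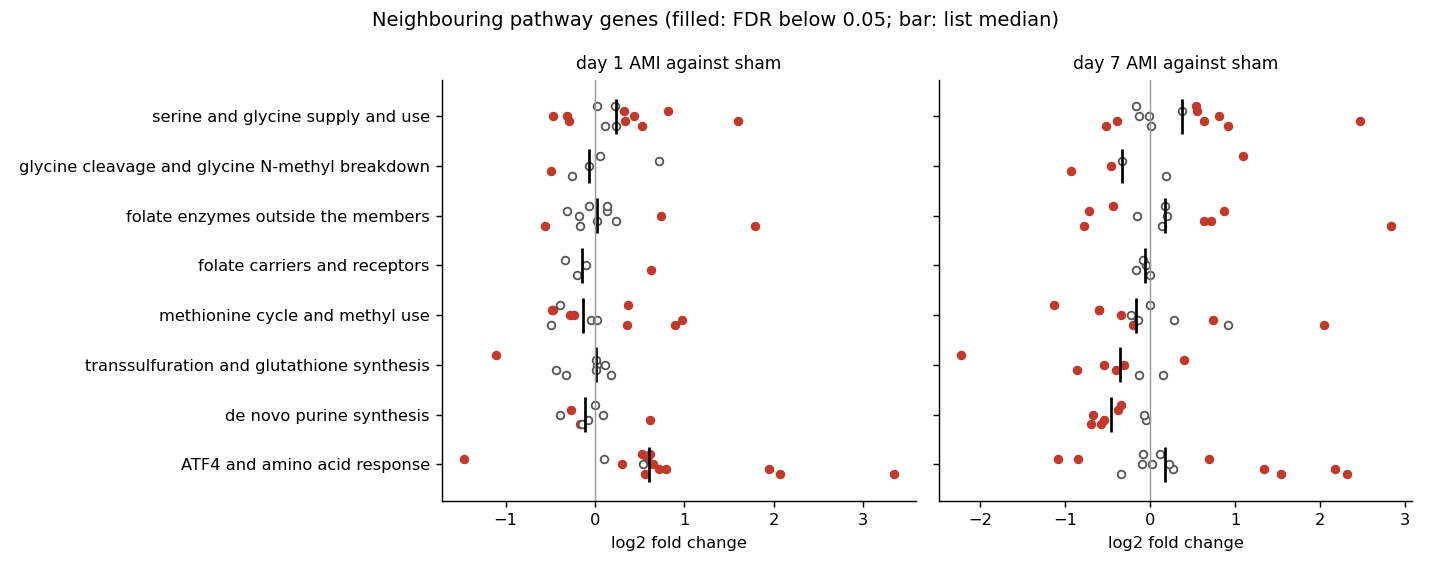
Log2 fold changes (horizontal axis) of tested genes in 8 neighbouring lists on day 1 and day 7 AMI against sham, filled where the FDR was below 0.05, with the list median as a bar. On day 1 the ATF4 and amino acid response has the highest median, 0.60, and on day 7 purine synthesis has the lowest, −0.46.

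The hearts also differed within a group. Among day 1 hearts, replicate 2 was highest in *Psat1* and *Mthfd2* and also had the highest neutrophil (166 CPM) and macrophage (365 CPM) marker sums and the lowest cardiomyocyte sum (42635 CPM). Replicate 1, however, was highest in *Phgdh* (6.46 CPM) and *Mthfd1l* (9.83 CPM). Replicate 4 was lowest in *Psat1*, *Mthfd2* and *Mthfd1l* and had the highest fibroblast (2370 CPM) and cardiomyocyte (55350 CPM) sums. Among day 7 hearts, replicate 1 was highest in *Phgdh*, *Psat1*, *Psph*, *Shmt2*, *Mthfd2* and *Aldh1l2* and also in the fibroblast (16464 CPM, against 8207 to 11114 in the others), macrophage (581 CPM), endothelial (1287 CPM) and proliferating cell (286 CPM) sums. The lead of replicate 1 over replicate 4 was small in *Psat1* (11.25 against 11.12 CPM) and *Shmt2* (39.72 against 39.66 CPM). Replicate 1 was lowest in *Mthfd1* (26.0 CPM) and lay below replicates 3 and 4 in *Mthfd1l* (3.42 CPM). With 4 hearts in each group no correlation was computed within groups.

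The genes whose log2 CPM followed a member most closely over the 12 hearts were found among 13434 genes with a mean of at least 1 CPM, as a description. For *Phgdh* they were *Kcnn4* (Pearson r = 0.983), *Amz1* (0.981) and *Tnc* (0.980). For *Mthfd2* they were *Trim47* (r = 0.984), *Tubb5* (0.983) and *Anxa2* (0.982), and for *Gnmt* *Pithd1* (0.973), *Ap5s1* (0.972) and *Phospho1* (0.971). *Tnc*, the matrix protein tenascin-C, had a mean of 0.805 CPM in sham hearts, 88.8 on day 1 and 103 on day 7. The 12 hearts fall into the 3 groups, and the points share these differences between groups.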

How the data were processed

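RNA of 12 mouse hearts (4 sham, 4 day 1 AMI, 4 day 7 AMI) was re-analysed from the deposited tables, with groups and replicate numbers taken from the sample titles. The authors deposited raw counts for 53801 genes and TPM values for the same genes. Per the labels, CASAVA 1.8, STAR 2.4.0j and RSEM were used with the mm10 (GRCm38) build. The counting tool, the strand counted and how multi-mapped reads were handled are not given in the sources used here. The depth was 23204551 to 32166517 counts per library, and the floor of 3 counts, 0.0933 to 0.129 CPM, covers counting error only. Libraries of a group differed by more than sampling noise (chi-square per degree of freedom at least 9.19), so none repeated another.

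CPM were scaled by TMM (factors 0.781 to 1.17), and log2 CPM used a prior count of 2. Tests were edgeR 4.0.16 quasi-likelihood fits in R 4.3.3 on all 12 libraries after filterByExpr, with Benjamini-Hochberg FDR over 15306 genes. Genes are said to rise or fall at an FDR below 0.05. SE and 95% intervals follow from the quasi-likelihood F statistic. Ratios of paralogs were compared by exact permutation tests (scipy 1.17.1). Alternatives were DESeq2 1.42.0, RLE size factors, no filter, fits to the 2 groups alone, a replicate block, limma 3.58.1 with log2(TPM + 1) or log2(TPM + 0.1) as input, and each heart left out. The replicate numbers did not pair the hearts. The code was tested on simulated data.

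The members and lists were chosen with earlier results of these data known. From each neighbouring list, up to 3 genes past the FDR with the largest change per comparison and a mean of at least 1 CPM in one group could be named, and for *Phgdh*, *Mthfd2* and *Gnmt* the 3 most correlated genes. A gene that this rule names is not reported here by name, though its list's counts include it. Promoters came from RefSeq, gene positions from GENCODE M21. Protein sequences were not used here, so the planned identity between paralogs was not computed. Python 3.11.15 with matplotlib 3.10.9 made the figures.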

Additional observations from a re-analysis of the deposited data

Results flagged for a closer look

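In the sham group, *Mthfd2* in replicate 2 stood apart, with a gap to the nearest other heart that was 0.918 of the range of the group, past Dixon's 95% critical value. It read 3.98 CPM, from 97 counts, where the other sham hearts read 1.67 to 1.79 CPM. Among 36 such checks, 1 was past the critical value, and chance alone gives about 1 in 20.

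For 4 genes the change against sham differed between the 2 days by edgeR's test of day 7 against day 1. The change on day 7 minus that on day 1 was −0.876 for *Psat1*, −0.985 for *Mthfd1l*, −0.535 for *Shmt2* and −0.586 for *Mthfd1* on the log2 scale. *Psat1* and *Mthfd1l* remained above sham on day 7, while *Shmt2* and *Mthfd1* were near sham on day 1 and below it on day 7 by counts, with 0.13 each as log2(TPM + 1).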

How the results depend on the processing

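Precision is limited by counts for *Gnmt* on day 7 (4 to 10 per library) and *Mthfd1l* in sham hearts (10 to 48). Of 228 counts of members called under an alternative or with a heart left out, 217 stayed within 1.5 times the reported count. The number higher on day 1 against sham was 7 by limma on log2(TPM + 1) and 7 on log2(TPM + 0.1), and the number lower on day 7 against sham was 0 on both, where the median of all genes shifts as given above. The number past 2-fold downward from day 1 to day 7 was 1 by DESeq2, 1 with RLE size factors and 1 with a replicate block, and ran from 0 to 2 with a heart left out. Same-numbered hearts did not deviate together (correlations from −0.244 to 0.229, 4 of 12 over 0.1); the replicate block left the numbers called at FDR alone at 4 higher on day 1, 4 lower between the days, and 4 higher and 2 lower on day 7 against sham, and *Shmt1* was the call lost (−0.515, adjusted p = 0.0703).

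Some changes turned in sign, among them values near 0 and, on the TPM scales, called falls of *Shmt2*, *Mthfd1*, *Chac2* and *Gcsh* (day 7 against sham) and of *Adsl* and *Paics* (day 1). *Phgdh* between the days was −0.0150 by DESeq2, −0.0104 by RLE scaling, −0.00579 with no filter, −0.00463 when fitted to the 2 groups alone, −0.00978 with the replicate block, and −0.228 to 0.126 with a heart left out. *Aldh1l2* on day 1 was 0.00243 without the filter and −0.108 to 0.0431 with a heart left out, and *Psph* on day 7 against sham was −0.137 to 0.0368. As log2(TPM + 1) and log2(TPM + 0.1), the values against sham on day 7 were 0.301 and 0.347 for *Psph*, 0.126 and 0.130 for *Shmt2*, 0.127 and 0.134 for *Mthfd1*, 0.273 and 0.349 for *Aldh1l2*, 0.0738 and 0.0798 for *Chac2*, and 0.0895 and 0.0908 for *Gcsh*. Between the days they were 0.171 and 0.203 for *Shmt1*, 0.0848 and 0.0989 for *Mthfd2*, 0.0581 and 0.0659 for *Aldh1l2*, and 0.0398 and 0.0640 for *Aldh1l1*. On day 1 they were 0.215 and 0.283 for *Aldh1l2*, 0.1 and 0.102 for *Adsl*, and 0.0545 and 0.0549 for *Paics*. The ratio of *Shmt2* to *Shmt1* on day 7 against sham was −0.161 to 0.152 with a heart left out, and *Aldh1l2* to *Aldh1l1* between the days was −0.206 to 0.105, and 0.00189 from TPM + 0.1. The cause was not tested beyond the shift of the median. Counts of the neighbouring lists moved by over 1.5 times in 145 of 912 cases.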
